A study of Mus musculus with 12 samples.

Results

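Transcripts of 10 genes known for their part in the response to temperature or to protein damage were read in inguinal white adipose tissue (iWAT), 8 of them heat shock chaperones or their helpers and 2 of them cold-inducible RNA-binding proteins. The chaperone genes were Hspa1a, Hspa1b, Hspa8, Hsp90aa1, Hsph1, Dnajb1, Hspb1 and Bag3, and the cold-inducible genes were Cirbp and Rbm3. They were picked by name, and each name matched 1 of the 54134 genes in the count table. All 10 passed the filter on low counts that left 15585 genes to test.

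The samples were iWAT, a subcutaneous fat depot, of 12 male C57BL/6J mice, each sequenced on its own. Mice were injected at 8 weeks of age with an adeno-associated virus (AAV) that expressed its transgene in liver from the thyroxine binding globulin promoter, so the fat itself was not the target of the vector. The vector carried green fluorescent protein in 6 mice (AAV-GFP) and Notum in 6 mice (AAV-Notum). Notum is a secreted enzyme that removes the lipid from Wnt proteins and so inactivates them. All 12 mice then had 4 weeks of chow and a fast of 4 h before iWAT was taken, and all were housed at 1 room temperature. The study had no saline-injected control group, so both groups share the infection. No group was cooled or heated.

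Chaperones bind unfolded proteins and return them to their fold. HSP70 proteins are loaded by J-domain proteins such as DNAJB1 and unloaded by nucleotide exchange factors such as HSPH1 and BAG3, HSP90 matures kinases and steroid receptors, and small heat shock proteins such as HSPB1 hold damaged proteins until HSP70 takes them over. When unfolded proteins accumulate, the transcription factor HSF1 binds heat shock elements, inverted repeats of nGAAn, and raises transcription of the inducible members. CIRBP and RBM3 are small glycine-rich RNA-binding proteins whose transcripts rise at mildly lowered temperature, so the chaperones and this pair usually move in opposite directions with temperature. Inguinal fat can turn on heat production in beige adipocytes, and the study asked how circulating Notum affects fat and energy balance.

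The genes lie on 8 chromosomes of GRCm38 (mm10), and all are annotated as protein coding in GENCODE vM21. Hspa1a (chr17:34969190-34972156) and Hspa1b (chr17:34956436-34959238) are neighbours on the minus strand. Hspb1 (chr5:135887919-135889563, plus strand) and Hsph1 (chr5:149614287-149636376, minus strand) share a chromosome. Hspa8 lies at chr9:40800984-40810087 (plus), Hsp90aa1 at chr12:110690605-110702728 (minus), Dnajb1 at chr8:83608193-83612653 (plus) and Bag3 at chr7:128523616-128546981 (plus). Cirbp lies at chr10:80165985-80172786 (plus) and Rbm3 at chrX:8138975-8145880 (minus).

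Promoter sequences are shown for the genes that held the words read by HSF1, and for Cirbp with the octamer described as its mild-cold response element. RefSeq windows of 300 bases (GRCm38.p6, 250 before and 50 after a transcription start) were at hand for 7 of the 10 genes, 10 windows in all. They were searched on both strands for a pair of facing heat shock units (GAANNTTC or TTCNNGAA), for 3 alternating units (GAANNTTC followed at once by NNGAA, which contains both pairs) and for TCCCCGCC. Positions are counted from the RefSeq start. It equals the start of the GENCODE gene for Hspb1, Hspa1a and Hspa1b, lies 40 bases inside it for the Hsph1 window used below and 33 bases before it for Bag3, and for Cirbp it is an internal start 1854 bases inside the gene. The last 25 bases were found in an annotated transcript of the gene for 8 of the 10 windows, all but that of Bag3 and 1 of Cirbp that is not printed. In each line below the sequence reads 5′ to 3′ on the strand of the gene, with the matched letters in capitals.
Hspb1 (chr5:135887776-135887855, plus, 143 to 64 bases before the start): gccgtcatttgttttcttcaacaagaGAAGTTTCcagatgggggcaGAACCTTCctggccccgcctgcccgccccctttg
Hspa1a (chr17:34972227-34972286, minus, 130 to 71 bases before the start): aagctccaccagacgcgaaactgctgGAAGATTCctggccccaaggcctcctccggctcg
Hspa1b (chr17:34959309-34959368, minus, 130 to 71 bases before the start): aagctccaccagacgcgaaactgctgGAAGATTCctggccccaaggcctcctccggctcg
Hsph1, before the start (chr5:149636351-149636380, minus): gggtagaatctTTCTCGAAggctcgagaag
Hsph1, after the start (chr5:149636287-149636308, minus): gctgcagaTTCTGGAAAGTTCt
Bag3, after the start (chr7:128523614-128523632, plus): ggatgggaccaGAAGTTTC
Cirbp (chr10:80167589-80167610, plus, inside the gene, 250 to 229 bases before the internal start): ctgTCCCCGCCtcctagtcgct

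A pair of facing units was present in 5 of the 7 genes with a window (Hspb1, Hspa1a, Hspa1b, Hsph1 and Bag3) and in 6 of their 10 windows, against 15.1% of all 32851 windows. The 3-unit word was present in Hsph1 alone of the 7 genes and in 0.603% of all windows, and it reads TTCTGGAAAGTTC on the strand of the gene. Hspb1 had 2 pairs before its start, at 117 and 97 bases. The windows of Hspa1a and Hspa1b were identical at 296 of 300 positions, and the stretches printed above do not differ. TCCCCGCC was not particular to Cirbp: it was present in 5 of the 7 genes (Cirbp, Bag3, Dnajb1, Hspa1a and Hspa1b) and in 5.38% of all windows. A match describes letters in the sequence and is neither a bound site nor a cause of the values that follow.

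Sequencing gave 14711113 to 21618860 reads on genes per mouse. The RNA integrity number (RIN), on which higher is more intact, was 5.7 to 7.6 in AAV-GFP mice and 6.9 to 7.4 in AAV-Notum mice. Notum itself had 1 to 17 reads in the AAV-GFP mice and 8 to 560 in the AAV-Notum mice, high only in mice S_2032 (560 reads) and S_2041 (433 reads). The vector acts in liver, so reads in iWAT do not check the labels of the other 4 AAV-Notum mice. Summed over 10 adipocyte markers, the level was 43072 to 76679 CPM (reads of a gene relative to its library total after TMM scaling) in AAV-GFP mice and 39240 to 91893 CPM under AAV-Notum, so the tissue label matched its markers. Summed over 15 lymphoid markers it was 9.48 to 1712 CPM and 552 to 2331 CPM, with the lowest values in AAV-GFP mice S_2014 (9.48 CPM) and S_2011 (17.0 CPM), and all 15 markers had a log2 fold change above 0. Over skeletal muscle markers it was 10.7 to 881 CPM and 11.4 to 4155 CPM, the highest in AAV-Notum mouse S_2042. Hepatocyte markers summed to 46.3 to 5841 CPM under AAV-GFP and 24.8 to 835 CPM under AAV-Notum, and the immediate early genes that mark tissue handling to 176 to 229 and 158 to 252 CPM. Markers of brown and beige adipocytes summed to 96.2 to 184 CPM in controls and 100.3 to 391 CPM with Notum, and macrophage markers to 521 to 1592 and 927 to 1758 CPM. No defining marker of these cell types was at 0 in all mice, and their part in the values that follow was tested only for the lymphoid and muscle lists.

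Among the 10 genes, Hspb1, Hspa8, Hspa1b and Hsph1 were lower in AAV-Notum mice and Cirbp was higher at p under 0.05 before adjustment, and none passed after adjustment over all genes. Hspb1 had the largest difference, with a mean in AAV-Notum mice 0.519 times that of AAV-GFP mice. Hspa8 was lower by 0.35 on the log2 scale and Cirbp higher by 0.33. By edgeR's quasi-likelihood test with Benjamini-Hochberg adjustment over 15585 genes, 0 of the 10 genes had an adjusted p under 0.05 in either direction, where 0.0513% of all genes were called lower (8 genes) and 0.0% higher. At an unadjusted p under 0.05, 4 of the 10 genes were lower, against 9.54% of all genes, and 1 was higher, against 4.64%. No gene of the 10 had groups without overlap, which 0.693% of all genes showed on the lower side and 0.398% on the higher side. The log2 fold change was below 0 for 7 of the 10, against 48.8% of all genes, and the median was -0.35, against 0.0077 for all genes tested. The 10 genes were chosen with earlier results of these data known, so these counts and medians describe the list and do not test it. In whole tissue, fewer cells that express a gene and less RNA per cell cannot be told apart, and this holds for every value here.

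**Figure D1:**
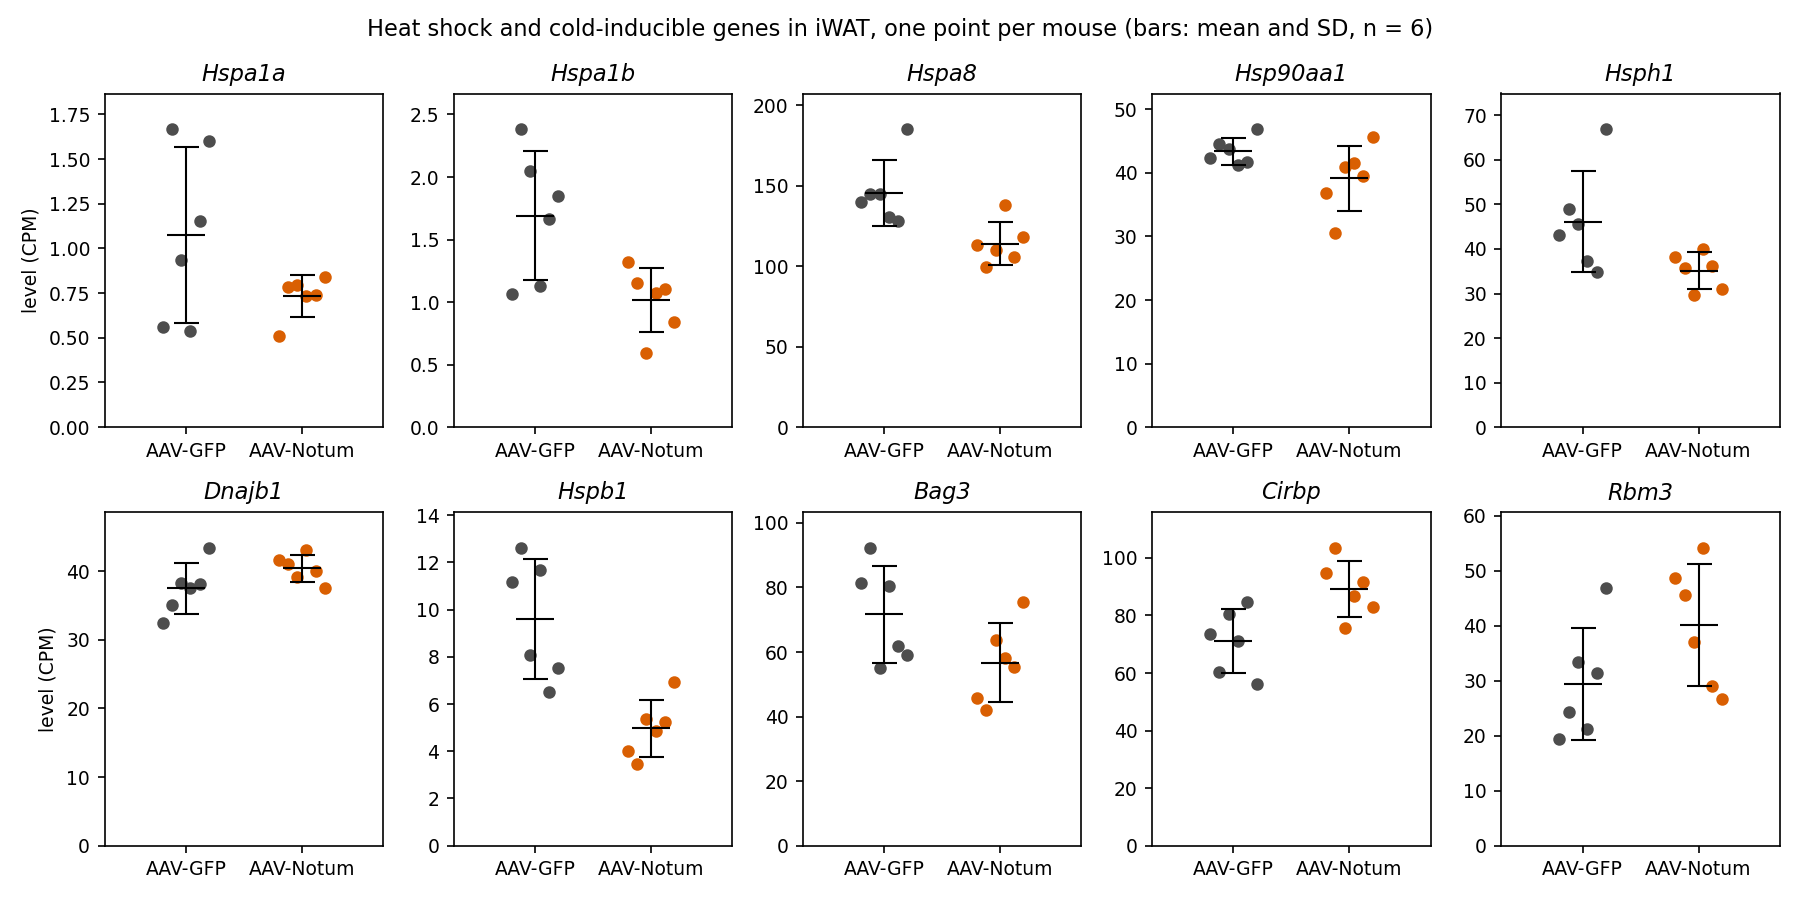
Level of each of the 10 genes in CPM (y axis, from 0) in the 6 AAV-GFP mice (grey) and the 6 AAV-Notum mice (orange), 1 point per mouse, with the mean and SD as black bars. Hspb1 and Hspa8 of 5 mice given Notum lie below the whole AAV-GFP group, Cirbp of 4 lies above the whole AAV-GFP group, and the groups overlap in all 10 panels.

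Hspb1 (ENSMUSG00000004951) encodes HSP27 (HSP25 in mice), a small heat shock protein that also binds actin filaments. Its level was 11.2, 12.6, 8.08, 11.7, 6.51 and 7.51 CPM in AAV-GFP mice S_2011, S_2012, S_2013, S_2014, S_2021 and S_2022. In AAV-Notum mice S_2031, S_2032, S_2033, S_2034, S_2041 and S_2042 it was 4.01, 3.46, 5.37, 4.87, 5.23 and 6.93 CPM. Of the AAV-Notum mice, 5 were below the whole AAV-GFP group, and only mouse S_2042 reached above the lowest AAV-GFP mouse, S_2021. The means were 9.59 ± 2.54 CPM (SD, n = 6) and 4.98 ± 1.21 CPM (SD, n = 6), which is -0.95 ± 0.21 (standard error) as log2 fold change. The exact permutation p was 0.00433, two-sided over all ways to split the mice, where the smallest possible is 0.00216. The unadjusted p in edgeR was 6.53e-04, rank 86 of all genes tested, and the adjusted p was 0.117. DESeq2, another count test, gave an adjusted p of 0.00208, while it called 2.63% of the 15267 genes it adjusted lower and 0.616% higher. With a lymphoid marker score as a covariate the log2 fold change of Hspb1 was -0.64 (unadjusted p = 0.00371), and with a skeletal muscle score it was -0.91 (adjusted p = 0.0278).

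Bag3 (ENSMUSG00000030847) encodes the exchange factor that joins HSP70 to small heat shock proteins and to autophagy. It had 81.3, 92.3, 55.0, 80.5, 61.9 and 59.0 CPM in the AAV-GFP mice and 45.7, 41.9, 63.6, 58.0, 55.3 and 75.4 CPM in the AAV-Notum mice, in the same order of mice as for Hspb1. The groups overlapped widely, with 2 AAV-Notum mice below the whole AAV-GFP group and mouse S_2042 again the highest of its group. Means were 71.7 ± 15.03 and 56.7 ± 12.2 CPM (SD, n = 6 each). The log2 fold change was -0.34 ± 0.17 (standard error), with an exact permutation p above 0.05 (0.0887). With the lymphoid score as a covariate it was -0.11 (unadjusted p = 0.489 in edgeR). Its unadjusted p was under 0.05 without AAV-GFP mouse S_2013 (log2 fold change -0.40), without S_2022 (-0.39) and without AAV-Notum mouse S_2042 (-0.44). It was also under 0.05 with the skeletal muscle score as a covariate (-0.31, unadjusted p = 0.0176 in edgeR) and in DESeq2 (-0.34, unadjusted p = 0.0472), though not after adjustment in either.

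Hspa8 (ENSMUSG00000015656) encodes HSC70, the constitutive HSP70 of the cytosol. Its level was 140.1, 144.8, 145.1, 130.8, 128.2 and 185 CPM in the AAV-GFP mice and 112.9, 99.7, 109.8, 137.6, 105.8 and 117.9 CPM in the AAV-Notum mice. All AAV-Notum mice but S_2034 were below the whole AAV-GFP group, and AAV-GFP mouse S_2022 stood above all others. The log2 fold change was -0.35 ± 0.10 (standard error; edgeR adjusted p = 0.179 by quasi-likelihood), with an exact permutation p of 0.00649. Without AAV-GFP mouse S_2022 it was -0.27, the smallest difference with any mouse left out.

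The inducible HSP70 genes Hspa1a (ENSMUSG00000091971) and Hspa1b (ENSMUSG00000090877), which are nearly silent in unstressed cells and rise most on heat shock, had 9 to 28 and 9 to 40 reads per mouse. Hspa1b had 1.06, 2.38, 2.05, 1.13, 1.66 and 1.85 CPM in the AAV-GFP mice and 1.32, 1.15, 0.597, 1.07, 1.11 and 0.842 CPM in the AAV-Notum mice. The 2 lowest mice were AAV-Notum mice S_2033 and S_2042, and the AAV-GFP mice S_2011 and S_2014 lay among the AAV-Notum mice. The log2 fold change was -0.72 ± 0.25 (standard error; exact permutation p = 0.0260), with an adjusted p of 0.236 in edgeR. Hspa1a had 0.560, 1.67, 0.936, 0.536, 1.15 and 1.60 CPM in the AAV-GFP mice and 0.508, 0.786, 0.796, 0.735, 0.738 and 0.842 CPM in the AAV-Notum mice. AAV-GFP mice S_2011 and S_2014 were again low, within the AAV-Notum range, and the other 4 were above it. The log2 fold change was -0.55 ± 0.30 (standard error), with an exact permutation p above 0.05 (0.186). Without AAV-GFP mouse S_2011 or S_2014 the log2 fold change of Hspa1a was -0.68 (unadjusted p = 0.0342 in edgeR) or -0.69 (unadjusted p = 0.0311). It was -0.38 (unadjusted p = 0.222) without S_2012 and -0.41 (unadjusted p = 0.208) without S_2022. With RIN as a covariate that of Hspa1a was -0.71 (unadjusted p = 0.0152, adjusted p = 0.427 in edgeR), and the r of Hspa1a with RIN was 0.77 within AAV-GFP mice, 0.03 within AAV-Notum mice and 0.69 with the group means removed (permutation p = 0.0635, adjusted p = 0.361 over 10 relations). Of the 50-base windows of the transcripts of both genes, 58.8% of those of Hspa1a and 62.3% of those of Hspa1b occur in the other gene, so the split of reads between them depended on the counting and is uncertain. Both also share windows with Gm10501 (232 with Hspa1a and 187 with Hspa1b), which had 562 reads over all mice against 189 for Hspa1a and 286 for Hspa1b. Reads on Gm10501 were 35 to 56 per AAV-GFP mouse and 41 to 59 per AAV-Notum mouse, and how many came from the HSP70 genes was not tested. The sum of both genes, taken after the values were seen, was 2.77 ± 0.966 CPM under AAV-GFP and 1.75 ± 0.193 CPM under AAV-Notum (SD, n = 6 each, exact permutation p = 0.0455). With the lymphoid score as a covariate the log2 fold changes of Hspa1a and Hspa1b were -0.87 (unadjusted p = 0.00980 in edgeR) and -0.99 (unadjusted p = 0.00113).

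Hsph1 (ENSMUSG00000029657) encodes HSP105, an exchange factor of the HSP110 family. It had 43.2, 48.9, 45.6, 37.4, 34.9 and 66.9 CPM in the AAV-GFP mice and 38.3, 35.8, 29.6, 40.1, 36.1 and 30.9 CPM in the AAV-Notum mice. Mice S_2033 and S_2042 were below the whole AAV-GFP group, and AAV-GFP mouse S_2022 was the highest, as for Hspa8. The log2 fold change was -0.39 ± 0.15 (standard error; edgeR adjusted p = 0.273), with an exact permutation p of 0.0281. Without AAV-GFP mouse S_2022 it was -0.26 (unadjusted p = 0.0406 in edgeR).

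Hsp90aa1 and Dnajb1, both classical targets of HSF1, differed least. Hsp90aa1 (ENSMUSG00000021270), the inducible HSP90, had 41.2 to 46.9 CPM in AAV-GFP mice (median 43.1) and 30.6 to 45.6 CPM under AAV-Notum (median 40.2). Its 2 lowest mice were AAV-Notum mice S_2032 (30.6 CPM) and S_2031 (36.8 CPM), and the log2 fold change was -0.15 ± 0.09 (standard error; exact permutation p = 0.0736). It was -0.09 without S_2032 and -0.20 (unadjusted p = 0.0403 in edgeR) without S_2042. Dnajb1 (ENSMUSG00000005483), the J-domain partner of HSP70, had 32.5 to 43.4 CPM in AAV-GFP mice (median 37.8) and 37.5 to 43.1 CPM under AAV-Notum (median 40.5). Dnajb1 of each AAV-Notum mouse exceeded the control mean but none was above the whole AAV-GFP group, and the log2 fold change was 0.11 ± 0.07 (standard error; exact permutation p = 0.115). For Dnajb1 it was 0.07 without AAV-GFP mouse S_2011 and 0.16 (unadjusted p = 0.0407 in edgeR) without S_2022, and it was 0.06 with RIN as a covariate.

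Cirbp (ENSMUSG00000045193) encodes the cold-inducible RNA-binding protein, which also regulates the amplitude of circadian transcripts. Its level was 73.7, 60.3, 80.5, 71.2, 84.6 and 56.3 CPM in the AAV-GFP mice and 94.9, 103.5, 75.7, 86.7, 91.5 and 82.9 CPM in the AAV-Notum mice. Mice S_2031, S_2032, S_2034 and S_2041 of the AAV-Notum group were above the whole AAV-GFP group, and S_2033 and S_2042 lay within their range. The means were 71.1 ± 11.1 and 89.2 ± 9.71 CPM (SD, n = 6 each), a log2 fold change of 0.33 ± 0.11 (standard error) with an exact permutation p of 0.0130 and an adjusted p of 0.231 in edgeR. With the lymphoid score as a covariate it was 0.31 (unadjusted p = 0.0359), and without AAV-GFP mice S_2011 and S_2014 it was 0.34 (unadjusted p = 0.0343), an alternative chosen after the data were seen.

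Rbm3 (ENSMUSG00000031167), whose protein supports translation and synapse repair after cooling, had 19.3, 24.3, 33.4, 21.2, 31.5 and 46.9 CPM in the AAV-GFP mice. It had 48.7, 45.6, 37.0, 54.2, 29.0 and 26.7 CPM in the AAV-Notum mice. The lowest 3 mice were AAV-GFP mice S_2011, S_2014 and S_2012, which were also the 3 mice of lowest lymphoid marker level (17.0, 9.48 and 298.5 CPM), and the lowest AAV-Notum mouse, S_2042, had the lowest lymphoid level of its group (552 CPM). Means were 29.4 ± 10.2 and 40.2 ± 11.1 CPM (SD, n = 6 each), and the log2 fold change of 0.45 ± 0.24 (standard error) was within the spread between mice (exact permutation p = 0.106). It was 0.09 (unadjusted p = 0.608 in edgeR) with the lymphoid score as a covariate. Without AAV-GFP mice S_2011 and S_2014 it was 0.24 (unadjusted p = 0.326), a value that had to be smaller since these were the 2 lowest mice. It was 0.63 (unadjusted p = 0.0133) without AAV-GFP mouse S_2022 and 0.54 (unadjusted p = 0.0423) without AAV-Notum mouse S_2042. With the skeletal muscle score as a covariate it was 0.41 (unadjusted p = 0.0309, edgeR).

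**Figure D2:**
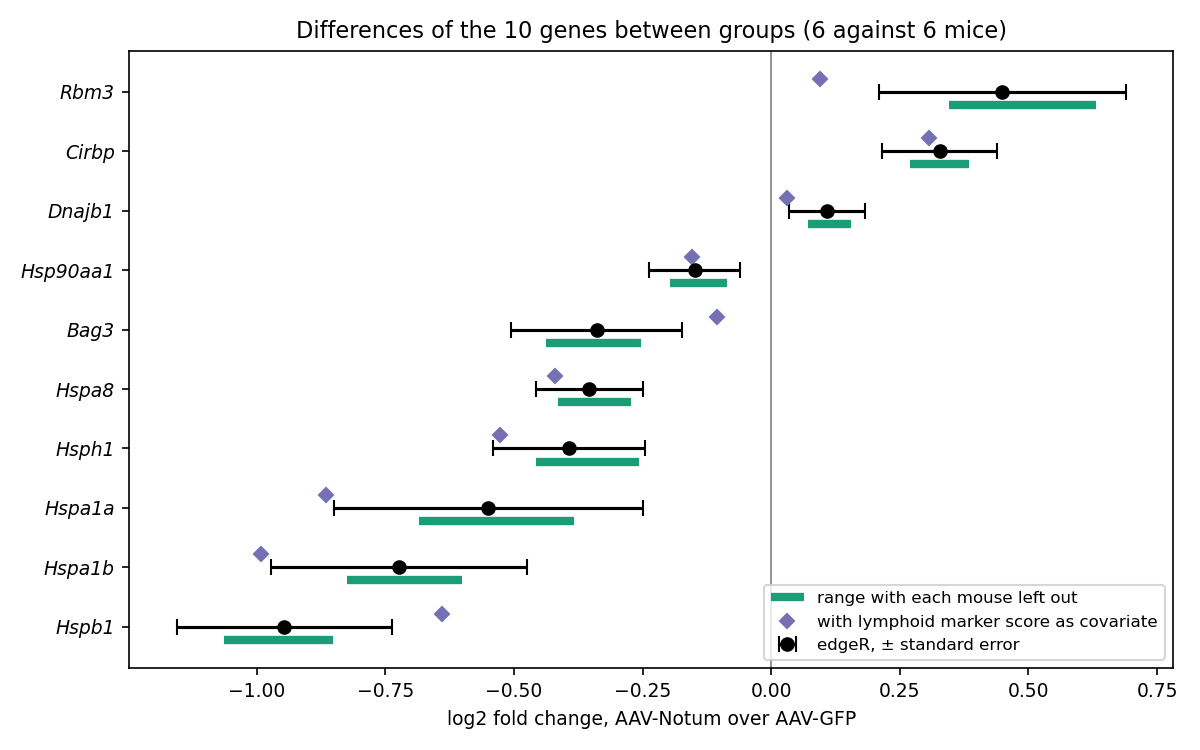
Log2 fold change of AAV-Notum over AAV-GFP (x axis) for each of the 10 genes, as black points with the standard error from edgeR, the range with each mouse left out in turn (green bars), and the value adjusted for the lymphoid marker score (purple diamonds). No green bar crosses 0, and the diamonds lie nearest to 0 for Dnajb1 (0.03), Rbm3 (0.09) and Bag3 (-0.11).

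No gene of the 10 changed direction when any single mouse was left out or under the other fits. Leaving out AAV-GFP mouse S_2012, whose RNA was isolated on a later date than that of the other 11 mice, left 4 of the 10 genes lower and 1 higher at an unadjusted p under 0.05, against 7.11% and 2.99% of the 15808 genes tested in that fit. After adjustment over 10 relations no correlation of RIN with the 10 genes had p under 0.05, pooled or with the group means removed. The strongest pooled over the 12 mice was Dnajb1 (Pearson's r = 0.72, permutation p = 0.0103, adjusted p = 0.103; Spearman's rho = 0.58, permutation p = 0.0504, adjusted p = 0.464), and its r was 0.39 without the 2 mice farthest from the median RIN.

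Levels were also divided by the length of all annotated exons of a gene, merged. On this scale the order in AAV-GFP mice was Hspa8 (33.9 ± 4.77 CPM per kb, SD, n = 6), Bag3 (28.0 ± 5.87), Cirbp (27.3 ± 4.25), Dnajb1 (11.7 ± 1.14), Hsp90aa1 (11.0 ± 0.537), Hspb1 (9.30 ± 2.46), Hsph1 (6.35 ± 1.57), Rbm3 (6.26 ± 2.18), Hspa1b (0.603 ± 0.184) and Hspa1a (0.363 ± 0.166). Neighbours in this order overlapped between mice at all steps but those from Cirbp to Dnajb1 and from Rbm3 to Hspa1b. On this scale the constitutive HSP70, its exchange factor Bag3 and Cirbp had the highest levels and the inducible HSP70 genes the lowest. The merged length, 7266 bases for Hsph1 and 4698 bases for Rbm3, need not be that of the expressed transcript, and the order depends on it.

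In 9 lists of other chaperone, co-chaperone, heat-induced and temperature-responsive genes, 106 of 113 genes were tested, and 0 had an adjusted p under 0.05 (smallest 0.141, Serpinh1). At an unadjusted p under 0.05, 11 (10.4%) were lower and 2 (1.89%) were higher, against 9.54% and 4.64% of all genes, and the median log2 fold change was -0.019. The lists as a whole stood close to all genes on the lower side.

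HSP70 and HSP110 chaperones other than the 10 genes held the most genes at this p, with 5 of 10 lower, 0 higher and a median of -0.32. Hspa5, the HSP70 of the endoplasmic reticulum (BiP), had 507 ± 57.4 CPM under AAV-GFP and 407 ± 39.0 CPM under AAV-Notum (SD, n = 6 each; log2 fold change -0.32, exact permutation p = 0.00866), with 4 AAV-Notum mice below the whole AAV-GFP group. Hspa13, a microsomal member, had 28.5 ± 3.04 and 22.7 ± 2.25 CPM (log2 fold change -0.33). Hspa12b, a distant relative found in endothelium, had 63.6 ± 18.01 and 39.3 ± 5.32 CPM (log2 fold change -0.70), while 7 of 8 endothelial markers had a log2 fold change below 0 and their summed level was 681 to 1076 and 641 to 871 CPM in the 2 groups, whose part in this was not tested. Hspa2, best known from testis, had 7.07 ± 2.13 and 4.40 ± 0.412 CPM (log2 fold change -0.68). Adjusted p in edgeR's quasi-likelihood test was between 0.145 and 0.201 for these 4 genes, and DESeq2 called all 4 lower. With the lymphoid score as a covariate the log2 fold change was -0.40 for Hspa12b, -0.43 for Hspa2 (unadjusted p = 0.0509 in edgeR) and -0.21 for Hspa13.

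The other lists held fewer such genes. The heat shock factor list had 5 genes tested, Hsf1, Hsf2, Hsf3, Hsf4 and Hsbp1. Of these Hsf1, the main regulator, had 36.2 ± 4.48 CPM under AAV-GFP and 32.7 ± 6.02 CPM under AAV-Notum (SD, n = 6 each; log2 fold change -0.15, exact permutation p = 0.264). With the lymphoid score as a covariate that of Hsf1 was -0.29 (unadjusted p = 0.0393 in edgeR). Only Hsf3 was at an unadjusted p under 0.05, at 1.60 ± 0.617 and 0.684 ± 0.334 CPM (log2 fold change -1.23). Of 21 J-domain genes 3 were lower and 0 higher (Dnajb2, Dnajb4 and Dnajc3, log2 fold changes -0.32, -0.45 and -0.18), with a median of 0.02. With the lymphoid score as a covariate Dnajb2, Dnajb4 and Hsf3 were at -0.17, -0.24 and -0.84, each above an unadjusted p of 0.05 in edgeR. Of 12 HSP70 co-chaperones 1 was higher, Dnajc7, which carries TPR domains (log2 fold change 0.21, or 0.06 with the lymphoid score), and 0 were lower. Of 18 HSP90 genes 1 was higher, Cacybp (log2 fold change 0.18, 5 AAV-Notum mice above the whole AAV-GFP group), and 0 were lower. The constitutive HSP90 gene Hsp90ab1 had 1066 ± 72.5 and 983 ± 56.5 CPM (log2 fold change -0.12, exact permutation p = 0.0433, adjusted p = 0.499 in edgeR). Each of Dnajb4, Dnajc3, Dnajc7 and Cacybp passed an unadjusted p of 0.05 with some mice left out and not with others. None of the 10 chaperonin genes, whose products form closed folding chambers, was at an unadjusted p under 0.05, and their log2 fold changes lay between -0.11 and 0.08.

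Of 5 small heat shock genes tested besides Hspb1, only Cryab, the αB-crystallin of muscle and lens, was at an unadjusted p under 0.05 in edgeR. It had 20.6 to 141.3 CPM in AAV-GFP mice (median 74.2) and 27.3 to 48.7 CPM under AAV-Notum (median 37.9). The AAV-Notum mice lay inside the AAV-GFP range (exact permutation p = 0.169), and the log2 fold change of -1.02 became -0.21 (unadjusted p = 0.545) with the lymphoid score as a covariate. Among 12 other heat-induced genes, Serpinh1, the collagen chaperone HSP47, had 498 ± 150 CPM under AAV-GFP and 301 ± 32.3 CPM under AAV-Notum (SD, n = 6 each; log2 fold change -0.73, exact permutation p = 0.00866, adjusted p = 0.141 in edgeR). DESeq2 gave Serpinh1 an adjusted p of 0.00884, while the log2 fold change was -0.39 with the lymphoid score as a covariate and -0.48 without AAV-GFP mice S_2011 and S_2014. The other 11 were above an unadjusted p of 0.05. The list of Cirbp relatives and splicing genes that respond to temperature also held Rtn3 (log2 fold change -0.31). Of its 13 genes 0 were at an unadjusted p under 0.05, 10 had a log2 fold change above 0 and the median was 0.09.

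**Figure D3:**
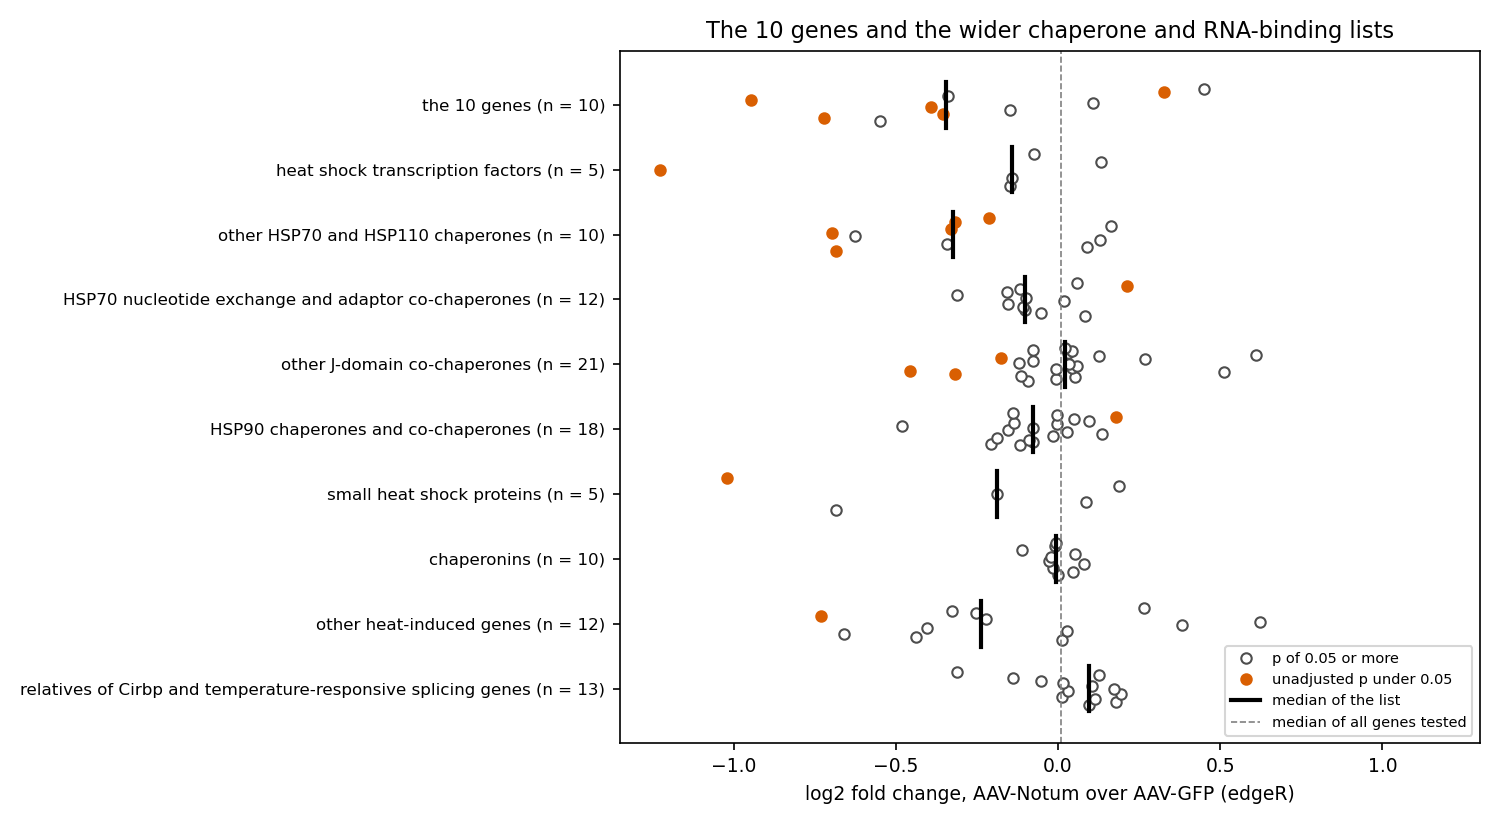
Log2 fold change of AAV-Notum over AAV-GFP (x axis) of each gene tested, by list (rows), with genes at an unadjusted p under 0.05 in orange, the others open, the median of each list as a black bar and the median of all genes tested as a dashed line. The 10 genes (median -0.35) and the other HSP70 and HSP110 genes (median -0.32) lie furthest to the left, and the chaperonins (median -0.0067) lie at the dashed line.

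Some of the 10 genes varied together over the 12 mice. With 45 pairs compared, 15 had an adjusted p under 0.05 by Pearson's r and 14 by Spearman's rho, but only 2 did once the group means were removed. These were Dnajb1 with Rbm3 and Hspb1 with Bag3.

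Dnajb1 and Rbm3 had r = 0.90 (permutation, adjusted p = 0.00270) and rho = 0.92 (permutation, adjusted p = 0.00540). Their r was 0.89 within AAV-GFP mice, 0.90 within AAV-Notum mice, 0.87 with the group means removed (permutation, adjusted p = 0.0108) and 0.87 without the 2 mice farthest from the median of Dnajb1. Thus a heat shock gene and a cold-inducible gene varied together from mouse to mouse, in both groups. Both were lowest in AAV-GFP mouse S_2011 and AAV-Notum mouse S_2042 within their groups, where the lymphoid marker level was 17.0 and 552 CPM. Both were highest in AAV-GFP mouse S_2022 and AAV-Notum mouse S_2034, where it was 1712 and 1726 CPM. The order by lymphoid level was not the same, since among AAV-GFP mice S_2014 had the lowest level (9.48 CPM) and among AAV-Notum mice S_2032 and S_2031 had the highest (2331 and 2063 CPM). Among AAV-GFP mice RIN was also lowest in S_2011 (5.7) and highest in S_2022 (7.6), while AAV-Notum mice S_2042 and S_2034 both had 6.9. The r of Dnajb1 and Rbm3 with RIN was 0.81 and 0.73 within AAV-GFP mice and -0.07 and -0.18 within AAV-Notum mice. With the group means removed these were 0.68 and 0.48 (permutation, adjusted p = 0.361 and 0.515). The part of cell composition or of RIN in this pair was not tested.

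Hspb1 and Bag3 had r = 0.89 (permutation, adjusted p = 0.00495) and rho = 0.79 (permutation, adjusted p = 0.0304). Their r was 0.90 within AAV-GFP mice, 0.98 within AAV-Notum mice, 0.94 with the group means removed (permutation, adjusted p = 0.0108) and 0.80 without the 2 mice farthest from the median of Hspb1. Both were highest in AAV-GFP mice S_2011, S_2012 and S_2014, whose summed adipocyte marker level was 69452, 76679 and 72029 CPM against 43072 to 52334 CPM in the other 3 AAV-GFP mice. Among AAV-Notum mice both were highest in mouse S_2042 (91893 CPM of adipocyte markers) and lowest in mice S_2031 and S_2032 (41171 and 39240 CPM). The part of adipocyte content was not tested.

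**Figure D4:**
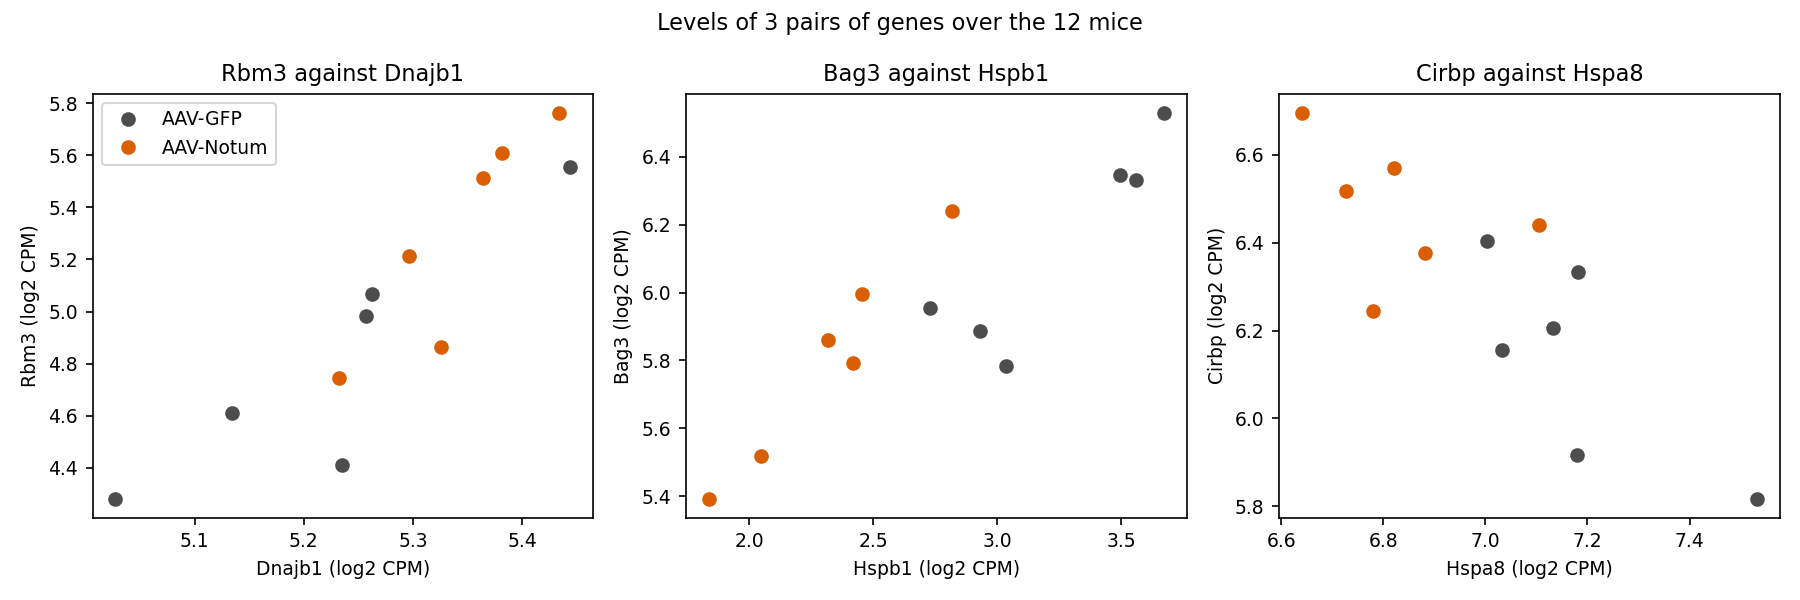
Levels of Rbm3 against Dnajb1, Bag3 against Hspb1 and Cirbp against Hspa8 (log2 CPM on both axes), 1 point per mouse, AAV-GFP in grey and AAV-Notum in orange. Rbm3 rises with Dnajb1 and Bag3 with Hspb1 within both groups (r from 0.89 to 0.98), while Cirbp is lower where Hspa8 is higher (r = -0.81 over 12 mice).

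Over the 12 mice Cirbp correlated negatively with 4 of the 8 chaperone genes (Hspa8, Hsp90aa1, Hspb1 and Bag3), though with none of them after the group means were removed. Its r was -0.81 with Hspa8 and -0.75 with Hsp90aa1 (permutation, adjusted p = 0.0147 and 0.0238), with rho -0.74 and -0.72 (permutation, adjusted p = 0.0381 and 0.0412). With Hspa8 it was -0.76 within AAV-GFP mice, -0.40 within AAV-Notum mice and -0.56 without the 2 mice farthest from the median of Hspa8. With Hsp90aa1 it was -0.76 within AAV-GFP mice, -0.82 within AAV-Notum mice and -0.64 without the 2 mice farthest from the median of Hsp90aa1. With the group means removed they were -0.62 and -0.64 (permutation, adjusted p = 0.176 and 0.0853). With Hspb1 and Bag3 the r of Cirbp was -0.77 and -0.68 (permutation, adjusted p = 0.0229 and 0.0463), with rho -0.87 and -0.75 (permutation, adjusted p = 0.0101 and 0.0381). These were -0.34 and -0.30 within AAV-GFP mice, -0.78 and -0.85 within AAV-Notum mice, and -0.59 and -0.41 without AAV-GFP mouse S_2012 and AAV-Notum mouse S_2032. Cirbp and Rbm3 had r = 0.32 (permutation, adjusted p = 0.464) and rho = 0.45 (permutation, adjusted p = 0.288), and with the group means removed r was -0.03. Their r was -0.26 within AAV-GFP mice and 0.36 within AAV-Notum mice, and 0.70 without AAV-GFP mice S_2012 and S_2022. The cold-inducible genes thus both had higher means under AAV-Notum, and no correlation between them was detected.

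Rbm3 was in turn opposite to Hspb1 and Bag3, with r = -0.79 for each (permutation, adjusted p = 0.0226 for each) and rho = -0.73 and -0.74 (permutation, adjusted p = 0.0381 for each). These were -0.78 and -0.80 within AAV-GFP mice, -0.73 and -0.63 within AAV-Notum mice, and -0.77 and -0.79 without the 2 mice farthest from the median of Hspb1 or Bag3. With the group means removed they were -0.76 and -0.72 (permutation, adjusted p = 0.0853 and 0.120). The chaperone gene Dnajb1 was likewise opposite to both, with r = -0.72 and -0.74 (permutation, adjusted p = 0.0272 and 0.0265), rho = -0.69 and -0.76 (permutation, adjusted p = 0.0494 and 0.0381) and r = -0.65 for each with the group means removed (permutation, adjusted p = 0.164 and 0.144). Within AAV-GFP mice these were -0.65 and -0.71, within AAV-Notum mice -0.70 and -0.65, and without AAV-GFP mice S_2011 and S_2022 -0.86 and -0.80. Hspa8 and Hsph1 formed a positive pair at r = 0.86 (permutation, adjusted p = 0.00840) and rho = 0.82 (permutation, adjusted p = 0.0279). With the group means removed their r was 0.76 (permutation, adjusted p = 0.0853). It was 0.98 within AAV-GFP mice, 0.32 within AAV-Notum mice and 0.78 without the 2 mice farthest from the median of Hspa8. By contrast the r of Hsp90aa1 with Hspb1 (0.68) and with Bag3 (0.68) fell to 0.34 and 0.22 without AAV-Notum mice S_2031 and S_2032, so both relations rest on those mice.

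**Figure D5:**
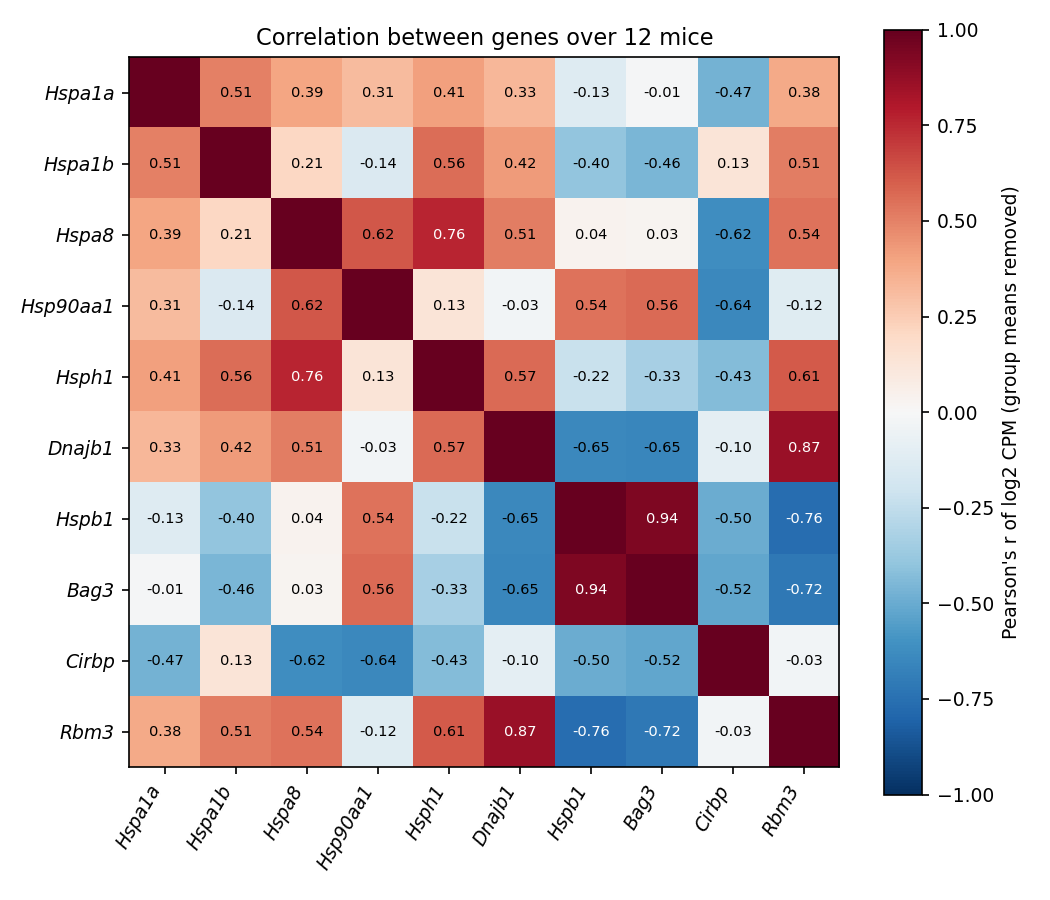
Pearson's r of log2 CPM between each pair of the 10 genes over the 12 mice after the mean of each group was removed (colour scale from -1 to 1, values printed). Dnajb1 with Rbm3 (0.87) and Hspb1 with Bag3 (0.94) are the strongest positive pairs, and Rbm3 is negative with Hspb1 (-0.76) and Bag3 (-0.72).

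The genes most like 4 of the 10 were sought among 11580 others with a mean log2 CPM of at least 2, by Pearson's r over the 12 mice, which share libraries and cell composition, so these values are descriptions. Hspa8 was most like Hsp90ab1 (r = 0.89), Itga5 (0.83), Pop1 (0.83), Sh3bp4 (0.82) and Stat3 (0.79). Dnajb1 was most like Cdc37 (r = 0.95), Mis12 (0.94), Kctd1 (0.93), Arf3 (0.92) and Fryl (0.92). Cirbp was most like Pdss1 (r = 0.89), Haghl (0.87), Ptp4a2 (0.87), Zfp709 (0.85) and Mat2b (0.85). Rbm3 was most like Rplp0 (r = 0.98), Tsc22d4 (0.98), Nup107 (0.97), Kif20a (0.97) and Prc1 (0.97).

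Reads of several of the genes could also have come from copies elsewhere. Of the 50-base windows of Hspb1, 50.1% occur in other genes, chiefly in the pseudogene Hsp25-ps1, which had 15 reads over all mice against 1512 for Hspb1. For Hsp90aa1 the share was 47.5% and for Hspa8 39.4%, with 83 reads on Gm12346 (1664 windows shared with Hsp90aa1) and 69 on Gm15459 (1642 shared with Hspa8). Hsp90aa1 also shares 213 windows with Gm5511, which had 170 reads, 0 to 17 per AAV-GFP mouse and 5 to 44 per AAV-Notum mouse. Gm5511 was highest in S_2031 (44 reads) and S_2032 (27 reads), the 2 mice lowest for Hsp90aa1, and its part in the level of Hsp90aa1 was not tested. For Rbm3 it was 9.71%, for Dnajb1 0.412%, and Hsph1, Bag3 and Cirbp shared no window. Rbm3 overlaps the antisense gene Rbm3os over 94 bases, which had 139 reads against 7350 for Rbm3, and Hspa1a overlaps Gm20481 (1 read) on the opposite strand. Whether the counting used strand is not given in the sources used here.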

How the data were processed

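RNA of 12 iWAT samples was sequenced as 50-base single-end reads (HiSeq4000). Per the labels and the study's methods, the authors mapped reads to mm10 with STAR 2.3.1; the counting program is not given in the sources used here. They deposited raw counts per gene, used here, and log2 normalized values, from which whole reads were recovered for 100% of values (tolerance 0.01) and used as an alternative. The tables rest on different counts: behind the normalized table Hspa1a had 133 reads against 189, and the other 9 genes had 100.6% to 105.8% of the raw reads.

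Counts were fitted in R 4.3.3 with edgeR 4.0.16 (filterByExpr, minimum count 10 and minimum total count 15; TMM; glmQLFTest, two-sided; Benjamini-Hochberg over 15585 genes, threshold 0.05). CPM use TMM library sizes, and log2 CPM a prior count of 2. Exact permutation tests used mean log2 CPM over 924 splits. Correlations used log2 CPM with 100000 permutations. Genes named from the wider lists are the 3 of smallest p per list at an unadjusted p under 0.05, plus Hsf1, Hsp90ab1, Cryab, Hspa5 and Fkbp5. The 10 genes and the lists were chosen with earlier results of these data known. Alternatives were DESeq2 1.42.0, limma-voom (limma 3.58.1), RLE factors, other filters, a robust fit, RIN, lymphoid or muscle scores as covariates, both forms of the normalized table, and each mouse left out. The fits were tested on simulated data.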

Additional observations from a re-analysis of the deposited data

Results flagged for a closer look

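In 50 groups of 6 mice checked (each of 25 genes named above in each group), the gap between the most distant mouse and the next, divided by the range, was above Dixon's 95% critical value in 3, and chance sets apart about 1 group in 20. Hspa1a was at 0.508 CPM in AAV-Notum mouse S_2031, with the other 5 mice of the group at 0.735 to 0.842 CPM. Hspa8 was at 185 CPM in AAV-GFP mouse S_2022, with the others at 128.2 to 145.1 CPM. Fkbp5, a co-chaperone of HSP90 that is induced by glucocorticoids, was at 184.8 CPM in AAV-GFP mouse S_2021, with the others at 50.5 to 87.6 CPM, and its log2 fold change of -0.48 became -0.08 without that mouse.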

How the results depend on the processing

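None of the 10 genes reversed in any of the 24 alternative fits (236 values, 234 on the same side of the threshold). The exceptions were Hspb1 in DESeq2 and with the muscle score, so 1 of the 10 was lower at an adjusted p under 0.05 in those fits against 0 in edgeR; every other fit gave 0. Hspa1a did not pass the filter in either form of the normalized table. The number higher at an unadjusted p under 0.05 was 2 with the muscle score (7.01% of all genes in that fit) and 1 to 3 with each mouse left out (3 without AAV-GFP mouse S_2022, 10.3% of all genes; 2 without AAV-Notum mouse S_2042, 6.77%). The number lower was 3 to 6 over all alternatives, in which 4.88% to 13.6% of all genes were lower at that p (13.4% without S_2042, which gave the 6). The median log2 fold change of the 10 was -0.23 with at least 10 counts in every mouse, where Hspa1a and Hspa1b were not tested, and -0.38 to -0.26 with each mouse left out. Of all genes, 8 were lower in edgeR; there were 402 in DESeq2, 13 with RLE factors, 5 with at least 1 count in all, 14 with at least 10 counts in every mouse, 4 with the lymphoid score, 72 with the muscle score, 4 from the normalized log2 values, 1 without AAV-GFP mice S_2011 and S_2014, and 1 to 146 with each mouse left out (146 without AAV-GFP mouse S_2022, 1 without AAV-Notum mouse S_2033). Higher were 0 in edgeR (723 at an unadjusted p under 0.05), 94 in DESeq2, 1 with RLE factors, 1 with at least 10 counts in every mouse, 5 with the muscle score, 1 from the recovered reads, and 0 to 12 with each mouse left out (12 without AAV-GFP mouse S_2022). The cause of these shifts was not tested. No paired analysis was possible because the groups share no mouse numbers. Hspa1a and Hspa1b rest on as few as 9 reads in a mouse, so their levels carry the most counting error.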
